A study of Homo sapiens with 36 samples.

Results

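The solute carrier family 25 (SLC25) encodes carriers that move metabolites, nucleotides, cofactors, phosphate and metals across the inner mitochondrial membrane. The members were all annotated genes whose symbol starts with SLC25A, pseudogenes left out, that were detected at a detection p below 0.01 on at least 2 of 36 arrays. Of 45 such genes with a probe, 38 met this rule, out of 14678 genes tested in all, and 1 probe stood for each gene, that of the highest mean signal. Illumina bead arrays, 36 in all, gave RNA levels in BEAS-2B, an immortalized human bronchial epithelial line (source labelled lung bronchus), and in HCT116, a human colorectal carcinoma line. Copper was given as CuSO4 in DMEM, at 800 µM to BEAS-2B and 1400 µM to HCT116, and each line has 10 copper arrays, 2 for every time of 2, 4, 6, 12 and 18 h. Each line also has 8 arrays labelled as not given copper, with 2 arrays for 0 h, 2 for 6 h and a single one for each of the times 2, 4, 12 and 18 h. Line and dose therefore cannot be told apart in any comparison of the lines' copper effects. Whether paired replicates are separate cultures is not in the labels, and the spread behind the p-values may then be technical only.

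Most carriers of this family work as antiporters that exchange a substrate of the matrix for one of the intermembrane space, and they reach the inner membrane through the TOM and TIM22 import machinery. SLC25A3 carries phosphate for ATP synthesis and is also the copper importer of the matrix, where copper is needed to build cytochrome c oxidase. SLC25A28 and SLC25A37, the mitoferrins, carry iron for haem and iron-sulphur cluster synthesis.

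The library facts that touch the results were few. The share of probes detected in BEAS-2B was 42.25% ± 0.634 (SD, n = 8) without copper and 37.05% ± 0.774 (SD, n = 4) late in copper, at 12 and 18 h. For HCT116 it was 41.02% ± 0.933 (SD, n = 8) without copper and 34.68% ± 1.65 (SD, n = 4) late in copper. The part of this drop in the falls of carriers was not tested. Among marker genes, CDX2, a colon transcription factor, and CDH1, the epithelial cadherin, were each detected on 8 of 8 untreated HCT116 arrays. There VIL1 was detected on 0 of 8, LGALS4 on 1 of 8 and KRT20 on 5 of 8. In BEAS-2B the epithelial genes EPCAM and KRT7 were detected on 8 of 8 untreated arrays, but CDH1 and the basal airway keratin gene KRT5 on 0 of 8, and of the fibroblast genes COL1A1 and PDGFRB on 8 of 8 and COL1A2 on 3 of 8. EPCAM was low in BEAS-2B, at a median log2 signal of 5.41 against 13.02 in HCT116. VIM, CAV1 and FN1 were detected on 8 of 8 untreated arrays in BEAS-2B. In HCT116 VIM and CAV1 were detected on 8 of 8 and FN1 on 0 of 8. Of the leukocyte genes, PTPRC was detected on 0 of 8 untreated arrays in BEAS-2B and 1 of 8 in HCT116, CD3E on 0 of 8 in both, CD14 on 8 of 8 and 2 of 8, and CD68 on 8 of 8 in both.

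The results turn most on SLC25A25 and SLC25A51, which rose in both lines on the probes used, and on SLC25A28, which fell in both. The sequences before their annotated starts are given for that reason. A second SLC25A25 probe was also called higher in both lines, but a second SLC25A51 probe was called in neither (0.27 and 0.07). RefSeq windows for GRCh38.p14 were at hand for 33 of the 38 members, 43 windows in all, and the 250 bases before each start were searched on both strands for 5 short motifs. Capitals mark every match. The cAMP response element (TGACGTCA), bound by CREB and ATF family factors, was found 200 bases before 1 of the 3 annotated starts of SLC25A25, and 1.65% of all 35116 windows hold it. The core of the antioxidant response element (TGACNNNGC, in 10.9% of all windows) and the core of the metal response element (TGCGCNC or TGCACNC, in 24.8%) lay 209 and 103 bases before another start of that gene. SLC25A51 held a metal response element core 26 bases before its start. SLC25A28 held the letters of a heat shock element core (GAANNTTC or TTCNNGAA, in 11.6% of all windows) 197 bases before the 1 start at hand. That start lies inside the annotated span of the gene (chr10:99610522-99659286) and not at its outer end.
SLC25A25, outer start, chr9:128067982-128068231, plus strand: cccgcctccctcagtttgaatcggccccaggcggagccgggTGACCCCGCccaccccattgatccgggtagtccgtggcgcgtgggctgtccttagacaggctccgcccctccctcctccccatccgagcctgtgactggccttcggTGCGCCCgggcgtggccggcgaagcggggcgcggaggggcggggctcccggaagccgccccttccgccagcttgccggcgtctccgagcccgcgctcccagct
SLC25A25, inner start, chr9:128098257-128098506, plus strand: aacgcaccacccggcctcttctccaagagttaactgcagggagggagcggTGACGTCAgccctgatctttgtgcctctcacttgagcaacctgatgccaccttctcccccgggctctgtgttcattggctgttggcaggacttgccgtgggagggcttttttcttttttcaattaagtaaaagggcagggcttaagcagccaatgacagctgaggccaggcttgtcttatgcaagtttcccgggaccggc
SLC25A51, chr9:37904128-37904377, minus strand: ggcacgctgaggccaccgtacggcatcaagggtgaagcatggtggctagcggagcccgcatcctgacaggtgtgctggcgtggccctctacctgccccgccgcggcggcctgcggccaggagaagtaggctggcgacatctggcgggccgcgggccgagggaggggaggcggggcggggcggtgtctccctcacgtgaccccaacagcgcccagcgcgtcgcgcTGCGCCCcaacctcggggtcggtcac
SLC25A28, chr10:99620440-99620689, minus strand: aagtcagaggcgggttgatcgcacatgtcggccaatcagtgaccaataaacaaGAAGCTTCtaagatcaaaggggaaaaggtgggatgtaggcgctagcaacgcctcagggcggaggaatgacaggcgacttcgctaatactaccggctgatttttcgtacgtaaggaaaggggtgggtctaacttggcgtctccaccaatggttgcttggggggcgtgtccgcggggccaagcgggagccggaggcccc
The 5th motif searched, the C/EBP-ATF element (TGATGNAA, in 3.14% of all windows), was found in none of these 4 windows, and its only match among the members' windows was in SLC25A11. Across the 43 windows of members, the metal response element core was in 16, the antioxidant core in 7, the heat shock core in 7 and the cAMP response element in 2, the second in SLC25A36. A match is a run of letters and not a shown binding site, and the arrays do not tell the starts of a gene apart.

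The comparison of copper with untreated arrays of the same time, averaged over the 5 times, asks which carriers copper changed in each line. As among all genes tested, more carriers were called lower than higher in both lines. On the probes used, SLC25A25 and SLC25A51 had the largest rises. In BEAS-2B 16 of 38 members were called lower (42.1%, where 30.3% of all genes tested were) and 4 higher (10.5%, against 18.5%). In HCT116 13 members were lower (34.2%, against 29.1% of all genes) and 4 higher (10.5%, against 17.3%). The median member stood at -0.22 on the log2 scale in BEAS-2B and -0.14 in HCT116, where the median of all genes was -0.04 in both. Among genes detected on at least 18 arrays, the median of 30 members was -0.25 in BEAS-2B and -0.15 in HCT116. The median of all 10649 such genes was -0.11 and -0.09. Effects are given as copper minus untreated on the log2 scale, ± is the standard error from limma over all 36 arrays, and a call is a two-sided limma p below 0.05 after Benjamini-Hochberg adjustment over all genes tested. As the RNA came from whole cultures, fewer cells that express a gene and less of its RNA per cell cannot be told apart.

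Some calls were shared by the lines. SLC25A25, SLC25A44 and SLC25A51 rose in both. SLC25A1, SLC25A4, SLC25A5, SLC25A12, SLC25A15, SLC25A17, SLC25A28, SLC25A39, SLC25A42, SLC25A43 and SLC25A46, 11 in all, fell in both. SLC25A37 rose only by the BEAS-2B call and SLC25A21 only by the HCT116 call, while 5 falls were called in BEAS-2B alone and 2 in HCT116 alone. No member was called in opposite directions (0 of 38), and 15 were called in neither line. As shares of the 38, 7.89% rose in both lines, 28.9% fell in both and 39.5% were called in neither, where 10.6%, 20.3% and 38.1% of all genes did so and 2.45% of all genes were called in opposite directions. Of the called members, 15 of 20 in BEAS-2B and 12 of 17 in HCT116 had a difference of 1 sign at all 5 times. The calls rest on the average of these same 5 differences, so this agreement is partly built in. It was not counted for all called genes.

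**Figure D1:**
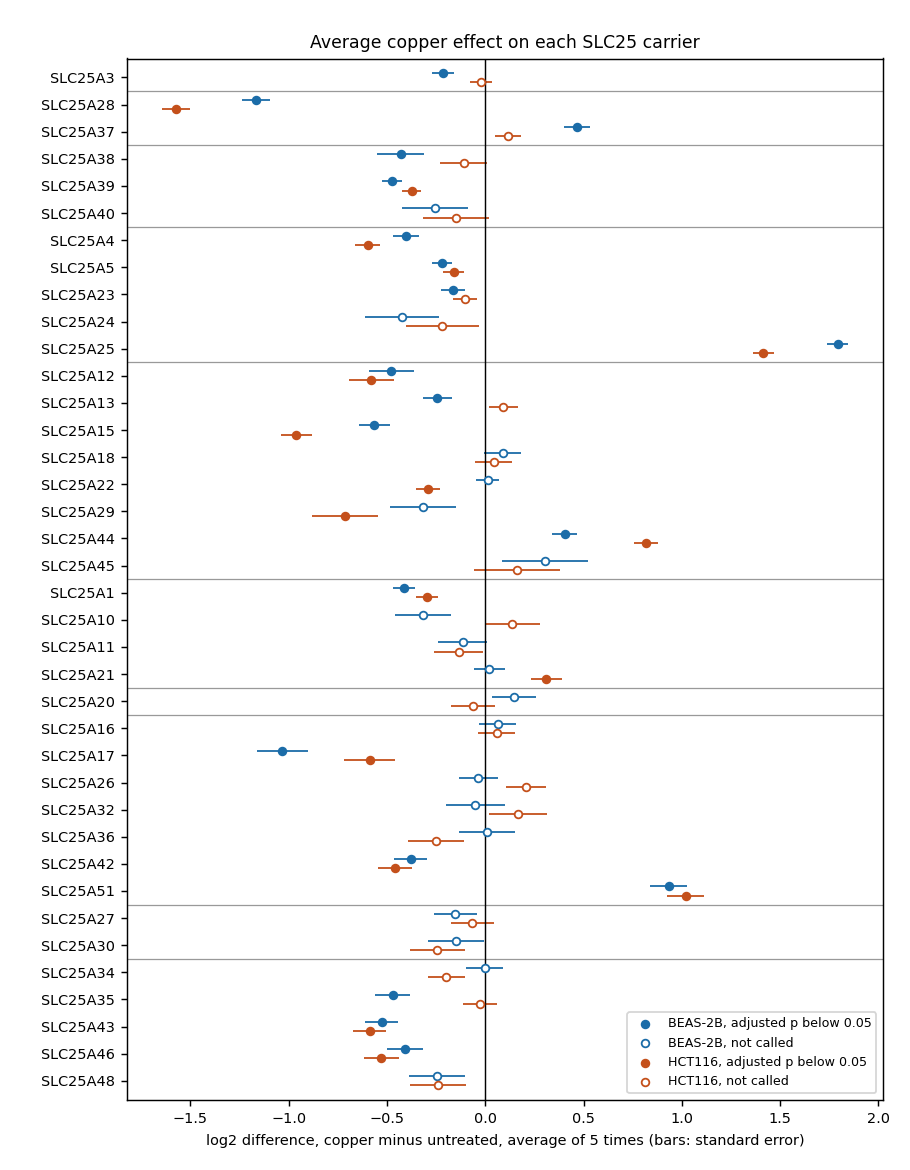
Average copper effect on each of the 38 carriers, as copper minus untreated on the log2 scale with its standard error, in BEAS-2B (blue) and HCT116 (orange). Filled points passed the adjusted threshold of 0.05, open points did not, and lines separate substrate groups in the order of the heat map. SLC25A25 lies farthest to the right and SLC25A28 farthest to the left in both lines.

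The ATP and ADP carriers moved in opposite ways within the group. SLC25A25 (Entrez Gene 114789, chr9:128068232-128109245 in GRCh38.p14) encodes a calcium-regulated carrier that exchanges ATP-Mg for phosphate and so sets the adenine nucleotide pool of the matrix. Its log2 signal on the 8 untreated BEAS-2B arrays ran from 8.56 over a median of 8.84 to 9.12, and on the 10 copper arrays from 10.40 over 10.59 to 10.74. In HCT116 the untreated arrays ran from 8.62 over 8.89 to 9.17 and the copper arrays from 9.81 over 10.27 to 10.62. Every copper array lay above every untreated array in both lines, beginning with the 2 h arrays. The difference was 1.79 ± 0.05 in BEAS-2B (3.47-fold, limma adjusted p = 6.4e-15) and 1.41 ± 0.05 in HCT116 (2.66-fold, adjusted p = 2.9e-13). A second probe of the gene gave 1.75 and 1.45. Untreated SLC25A25 in BEAS-2B was itself 0.38 lower at 12 and 18 h than at 0 to 6 h (limma adjusted p = 0.015).

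The other ATP and ADP carriers fell or did not pass. SLC25A4, the ADP/ATP translocase of muscle and heart, ran from 10.58 over 10.77 to 10.86 on untreated BEAS-2B arrays and from 10.25 over 10.38 to 10.56 with copper, with no overlap. In HCT116 it ran from 10.62 over 10.79 to 10.87 untreated and from 9.26 over 10.53 to 10.72 with copper, where the 4 arrays of 12 and 18 h lay at or below 9.68. The falls were -0.40 ± 0.06 and -0.60 ± 0.06, with adjusted p of 3.2e-05 and 3.2e-07. SLC25A5, the translocase of dividing cells, was at -0.22 ± 0.05 in BEAS-2B and -0.16 ± 0.05 in HCT116, both called lower. Its HCT116 call was lost without the 6 h arrays (limma adjusted p = 0.069) or the 18 h arrays (adjusted p = 0.20). SLC25A23, a second ATP-Mg carrier, was at -0.16 ± 0.06 in BEAS-2B (called lower) and -0.10 ± 0.06 in HCT116 (not called).

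SLC25A24, the third ATP-Mg carrier, depended on the probe. The probe used here (ILMN_1752639, for NM_013386) gave -0.42 ± 0.19 in BEAS-2B and -0.22 ± 0.19 in HCT116, neither called, and its late fall in BEAS-2B was called at -0.77 ± 0.31 (limma adjusted p = 0.046). That late call was lost without a detection filter (adjusted p = 0.060) and on leaving out any single copper array of BEAS-2B (0.050 to 0.10). A second probe for the same transcript (ILMN_1711838) ran from 4.84 over 5.41 to 5.69 on untreated BEAS-2B arrays and from 6.03 over 9.33 to 10.51 with copper. On HCT116 arrays it ran from 4.43 over 4.75 to 5.19 untreated and from 4.73 over 6.16 to 6.85 with copper. The 10 copper arrays of BEAS-2B all lay above the untreated ones, as did 9 of 10 in HCT116, and its BEAS-2B difference was 3.65 (limma adjusted p = 2.1e-11), with 4 of the 6 untreated arrays of the same times detecting it. At 12 and 18 h no untreated array detected it (0 of 2), and copper was at least 40.8-fold higher in BEAS-2B and at least 3.12-fold higher in HCT116 (adjusted p = 1.1e-10 and 0.00013). A bound of this kind takes an undetected array at its own signal or at the lowest detected signal of that array, whichever is higher. The third probe, for NM_213651, was detected on 18 arrays and gave -0.15 and 0.32, neither called. The probe used has the higher mean after normalization (6.61 against 6.38), but the second has the higher mean of the deposited signals (7.56 against 7.52), so the direction for SLC25A24 is not settled by these arrays.

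**Figure D2:**
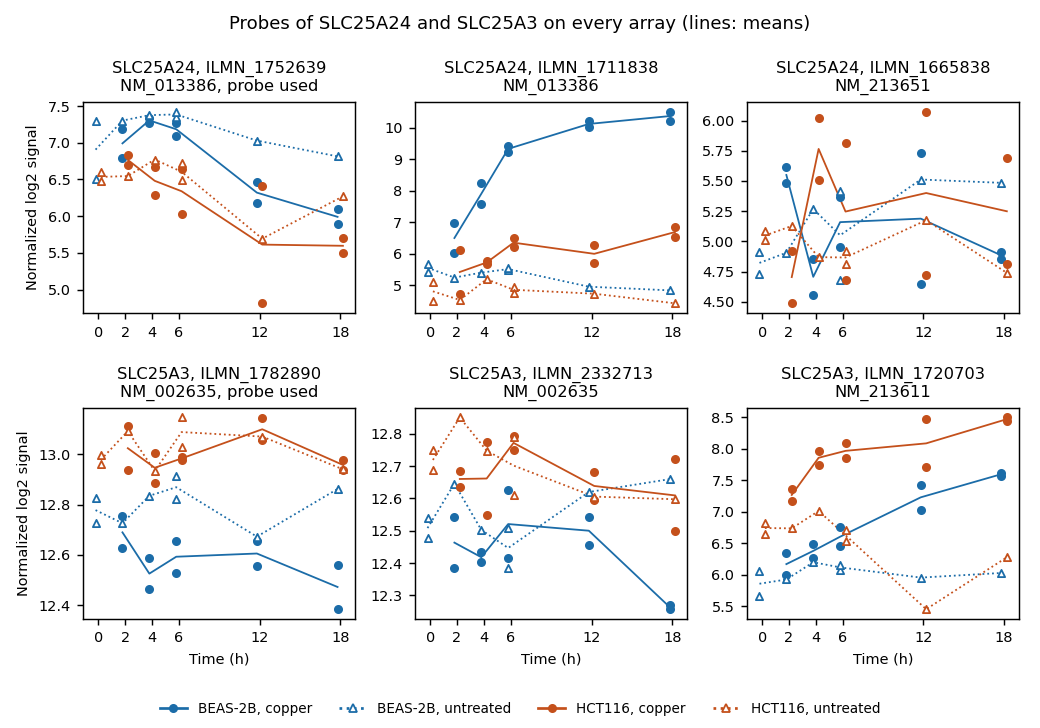
Normalized log2 signal on every array against time in h for the 3 probes of SLC25A24 (top) and the 3 probes of SLC25A3 (bottom), with copper arrays as filled circles, untreated arrays as open triangles and group means as lines. The second SLC25A24 probe rises to between 10 and 11 in BEAS-2B while the first falls, and only the third SLC25A3 probe separates copper from untreated HCT116 arrays.

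For the carrier of phosphate and copper itself, 2 of 3 probes moved by at most 0.22 in the average. SLC25A3 (Entrez Gene 5250, chr12:98593686-98606367) ran from 12.67 over 12.82 to 12.91 on untreated BEAS-2B arrays and from 12.38 over 12.57 to 12.75 with copper. In HCT116 it ran from 12.93 over 13.01 to 13.15 untreated and from 12.89 over 12.98 to 13.14 with copper, and 9 of 10 copper arrays lay within the untreated range. The difference was -0.22 ± 0.06 in BEAS-2B (limma adjusted p = 0.0034, 9 of 10 copper arrays below all untreated ones) and -0.02 ± 0.06 in HCT116 (adjusted p = 0.79). A second probe for the same transcript (NM_002635) gave -0.14 and -0.03, neither called. The probe for another transcript, NM_213611, rose in both lines, by 0.75 and 1.51 (limma adjusted p = 1.9e-05 and 3.1e-09). On that probe untreated HCT116 arrays ran from 5.45 over 6.68 to 7.01 and copper arrays from 7.17 over 7.91 to 8.50, with no overlap. At 12 and 18 h this difference was 1.42 and 2.41.

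The iron carriers parted. SLC25A28, mitoferrin-2 (Entrez Gene 81894, chr10:99610522-99659286), had the largest average fall of the 38 members in each line. Its untreated BEAS-2B arrays ran from 9.64 over 9.77 to 9.88 and its copper arrays from 7.69 over 8.74 to 9.52, with no overlap. In HCT116 they ran from 10.47 over 10.67 to 10.89 untreated and from 8.04 over 8.81 to 10.59 with copper, where only the 2 h arrays reached the untreated range. The falls were -1.17 ± 0.07 (2.25-fold, limma adjusted p = 1.6e-10) and -1.57 ± 0.07 (2.98-fold, adjusted p = 3.2e-12). SLC25A37, mitoferrin-1, which serves haem synthesis in red cell precursors, rose by 0.47 ± 0.07 in BEAS-2B (adjusted p = 9.9e-06) and was at 0.11 ± 0.07 in HCT116 (adjusted p = 0.18). Its copper and untreated arrays overlapped in BEAS-2B, from 8.17 to 9.16 against 7.56 to 8.57. Untreated SLC25A37 was 0.68 lower at 12 and 18 h than at 0 to 6 h (adjusted p = 0.00081). At 4 and 6 h its differences in BEAS-2B were 0.56 ± 0.15 and 0.57 ± 0.13.

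Carriers linked to glycine, glutathione and haem fell where called. SLC25A39, which imports glutathione into mitochondria, ran from 10.06 over 10.25 to 10.35 on untreated BEAS-2B arrays and from 9.59 over 9.81 to 9.95 with copper, with no overlap. It fell, at -0.47 ± 0.05 in BEAS-2B and -0.37 ± 0.05 in HCT116 (limma adjusted p = 2.4e-07 and 5e-06). Its close paralog SLC25A40 was at -0.26 ± 0.17 and -0.15 ± 0.17, neither called. SLC25A38, a glycine carrier of haem synthesis, fell in BEAS-2B (-0.43 ± 0.12, adjusted p = 0.0057) and was at -0.11 ± 0.12 in HCT116.

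Among 8 measured amino acid carriers, 3 fell and 1 rose in BEAS-2B, and 4 fell and 1 rose in HCT116 (of all genes, 30.3% fell and 18.5% rose in BEAS-2B and 29.1% and 17.3% in HCT116). SLC25A15, the ornithine carrier of the urea cycle, ran from 9.32 over 9.56 to 9.83 on untreated HCT116 arrays and from 7.72 over 8.59 to 9.14 with copper, with no overlap. It fell, at -0.96 ± 0.08 there and at -0.56 ± 0.08 in BEAS-2B (limma adjusted p = 1e-08 and 7.7e-06). Of the aspartate/glutamate carriers of the malate-aspartate shuttle, SLC25A12 fell in both lines (-0.48 ± 0.12 and -0.58 ± 0.12). Its untreated HCT116 arrays of 12 and 18 h stood at -0.77 against those of 0 to 6 h (limma adjusted p = 0.0068). SLC25A13 fell in BEAS-2B (-0.24 ± 0.07) and was at 0.09 ± 0.07 in HCT116. Without the 12 h arrays the BEAS-2B calls of SLC25A12 and SLC25A13 were lost (limma adjusted p = 0.059 and 0.064). SLC25A22, a glutamate carrier, fell in HCT116 (-0.29 ± 0.06) and was at 0.01 ± 0.06 in BEAS-2B, and SLC25A29, a carrier of basic amino acids, fell in HCT116 (-0.71 ± 0.17, adjusted p = 0.0017) and was at -0.32 ± 0.17 in BEAS-2B.

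SLC25A44, the carrier of branched-chain amino acids, was the amino acid carrier that rose. It ran from 9.26 over 9.49 to 9.63 on untreated BEAS-2B arrays and from 9.60 over 9.88 to 10.15 with copper. In HCT116 it ran from 8.46 over 8.95 to 9.15 untreated and from 9.08 over 9.46 to 10.32 with copper, so that 8 of 10 copper arrays in each line lay above all untreated arrays. The rises were 0.41 ± 0.06 and 0.82 ± 0.06 (limma adjusted p = 2.5e-05 and 4.3e-09). Untreated SLC25A44 in HCT116 was 0.48 lower at 12 and 18 h than at 0 to 6 h (adjusted p = 0.0026).

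The nucleotide and cofactor carriers held a strong riser and a strong faller. SLC25A51, which imports NAD+ into mitochondria (Entrez Gene 92014, chr9:37877575-37904127), ran from 11.59 over 11.84 to 12.33 on untreated BEAS-2B arrays and from 12.55 over 12.83 to 13.28 with copper. In HCT116 it ran from 10.48 over 10.84 to 11.07 untreated and from 11.13 over 11.63 to 12.68 with copper, and no copper array reached the untreated range in either line. The rises were 0.93 ± 0.09 (1.91-fold, limma adjusted p = 1.2e-07) and 1.02 ± 0.09 (2.03-fold, adjusted p = 4.3e-08). A second, dimmer probe for the same transcript gave 0.27 and 0.07, neither called. Signal of the pseudogene SLC25A51P4, detected on 25 arrays by a probe of its own and of the close paralog SLC25A52, detected on 0 arrays, was not told apart from that of SLC25A51.

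SLC25A17, the carrier of coenzyme A, FAD and NAD+ in the peroxisomal membrane, ran from 7.04 over 7.37 to 7.46 on untreated BEAS-2B arrays and from 4.82 over 6.57 to 7.44 with copper. It fell, at -1.03 ± 0.13 in BEAS-2B and -0.59 ± 0.13 in HCT116 (limma adjusted p = 2e-06 and 0.00093), and without the 6 h arrays the HCT116 call was lost (adjusted p = 0.061). SLC25A42, which carries coenzyme A in exchange for adenine nucleotides, fell, at -0.38 ± 0.08 and -0.46 ± 0.08. SLC25A16, SLC25A26 (S-adenosylmethionine), SLC25A32 (folate) and SLC25A36 (pyrimidine nucleotides) were not called in either line's average, and lay between -0.25 and 0.21. SLC25A32 was detected on 8 arrays. SLC25A33, a pyrimidine nucleotide carrier, lay outside the rule, and SLC25A6 was not analysed here.

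Of 4 measured carboxylate carriers, SLC25A1 fell in both lines and SLC25A21 rose in HCT116. SLC25A1, which exports citrate for fatty acid synthesis, fell, at -0.41 ± 0.06 in BEAS-2B and -0.30 ± 0.06 in HCT116 (limma adjusted p = 5.1e-06 and 0.00023). SLC25A10 (dicarboxylates, -0.32 ± 0.14 and 0.14 ± 0.14) and SLC25A11 (2-oxoglutarate, -0.11 ± 0.12 and -0.14 ± 0.12) were not called, nor was SLC25A20, the acylcarnitine carrier (0.15 ± 0.11 and -0.06 ± 0.11), of which a dimmer probe fell in BEAS-2B (-0.52, limma adjusted p = 0.020). SLC25A21, the oxodicarboxylate carrier, was detected on 18 of 18 HCT116 arrays and 0 of 18 BEAS-2B arrays. It rose by 0.31 ± 0.08 in HCT116 (adjusted p = 0.0032), with copper arrays from 5.43 to 6.41 and untreated arrays from 5.13 to 6.28. Its untreated arrays of 12 and 18 h stood 0.78 below those of 0 to 6 h (adjusted p = 0.00029), and against all untreated arrays the difference was 0.12 (adjusted p = 0.45). Without the 12 h or the 18 h arrays the call was also lost (adjusted p = 0.22 and 0.17).

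Of the remaining carriers, SLC25A43, with no assigned substrate here, fell, at -0.53 ± 0.08 and -0.59 ± 0.08. SLC25A46, an outer membrane protein of mitochondrial shape and dynamics, fell, at -0.41 ± 0.09 and -0.53 ± 0.09 (limma adjusted p = 0.00094 and 8.7e-05). SLC25A35 was detected on 5 of 6 untreated BEAS-2B arrays of the same times and on 0 of 10 copper arrays, and was at least 1.23-fold lower with copper. It is counted among the falls called in BEAS-2B. As it met the detection rule only through untreated BEAS-2B arrays, the rule favoured this fall and its p-value is no support. The uncoupling-protein-like carriers SLC25A27 and SLC25A30 were detected on 7 and 10 arrays and were not called.

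Probes of some other carriers differed in size or call. A second SLC25A15 probe fell in both lines but more in BEAS-2B (-0.78) than in HCT116 (-0.38). A second SLC25A29 probe was called lower in both lines (-0.33 and -0.94), and a dimmer SLC25A40 probe was called lower in BEAS-2B (-0.63, limma adjusted p = 0.019). One further SLC25A26 probe fell in BEAS-2B (-0.37, limma adjusted p = 0.032) and another rose in HCT116 (0.28, adjusted p = 0.037). A dimmer SLC25A43 probe was not called in BEAS-2B (-0.29, adjusted p = 0.082) and fell in HCT116 (-0.37, adjusted p = 0.026). A second SLC25A4 probe fell in both averages (-0.27 and -0.46). Its late value was not called in BEAS-2B (-0.15, adjusted p = 0.38) and was -0.69 in HCT116. A second SLC25A16 probe, detected on 2 arrays, fell in HCT116 (-0.24, adjusted p = 0.043).

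Detection limits some members. Of the 38, 24 were detected on all 36 arrays, 29 on at least 33, and 9 on 18 or fewer. SLC25A18 and SLC25A34, each detected on 2 arrays, lay just inside the rule, and 7 genes lay outside it (SLC25A2, SLC25A31, SLC25A33, SLC25A41, SLC25A47, SLC25A52 and SLC25A53), with at most 1 array each. Among the 29 carriers detected on at least 33 arrays, 4 were called higher and 15 lower in BEAS-2B (13.8% and 51.7%), and 3 higher and 13 lower in HCT116 (10.3% and 44.8%). Of the 7953 genes detected this widely, 25.3% were higher and 42.2% lower in BEAS-2B, and 25.4% and 38.6% in HCT116, so the background for well detected genes lies above that of all genes. A gene detected in only 1 line or 1 treatment could enter the list only through the side where it is high, so counts over the list describe these 38 genes and not the family.

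**Figure D3:**
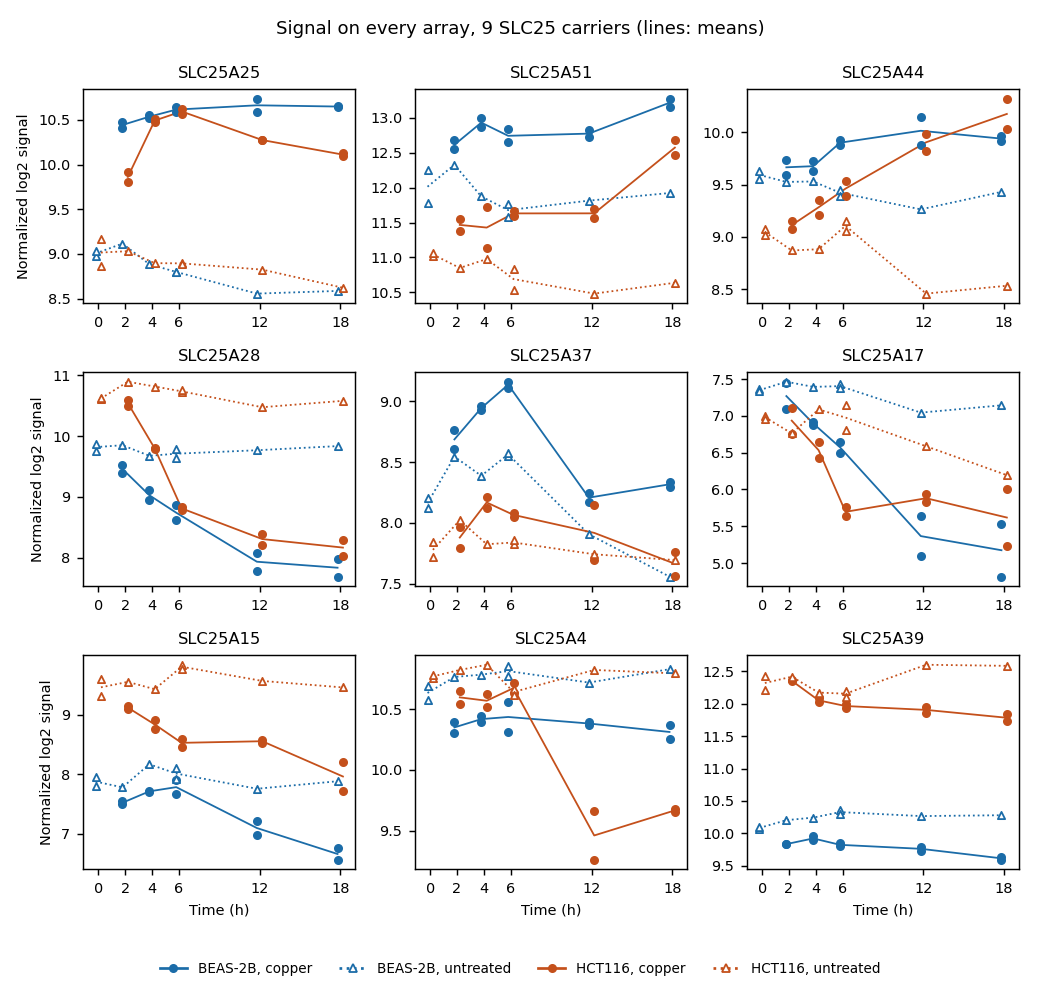
Normalized log2 signal on every array against time in h for 9 carriers, with copper arrays as filled circles, untreated arrays as open triangles, BEAS-2B in blue, HCT116 in orange and group means as lines. SLC25A25 and SLC25A51 with copper lie above all untreated arrays of their line, and SLC25A28 drops below its untreated range by 4 h in both lines.

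The early and late comparisons ask when the carriers moved. At 2 and 4 h few members were called: 3 higher and 4 lower in BEAS-2B, where 7.92% and 8.54% of all genes were, and 2 higher and 3 lower in HCT116, against 4.55% and 4.48%. In BEAS-2B the early risers were SLC25A25 (1.49 ± 0.09), SLC25A51 (0.67 ± 0.15) and SLC25A37 (0.35 ± 0.11), and the early fallers SLC25A28, SLC25A46, SLC25A4 and SLC25A39. The early calls of SLC25A37 and SLC25A46 were lost when single copper arrays were left out, with limma adjusted p of 0.062 to 0.11 and 0.095 to 0.10 (3 arrays for SLC25A37, replicate 1 at 2 h and both at 4 h, and for SLC25A46 replicate 2 at 2 h or at 4 h). The SLC25A51 call was lost with the mean of its probes (0.38, adjusted p = 0.12). In HCT116 SLC25A25 (1.21 ± 0.09) and SLC25A51 (0.53 ± 0.15) rose early and SLC25A28, SLC25A15 and SLC25A43 fell. Without copper 4 h replicate 1 the HCT116 calls of SLC25A51 (adjusted p = 0.12), SLC25A15 (0.053) and SLC25A43 (0.093) were lost, as were those of SLC25A51 (0.10) and SLC25A43 (0.093) without copper 2 h replicate 2. With probes averaged the same 3 calls were lost (adjusted p = 0.087, 0.12 and 0.11). SLC25A28 was the member with the lowest early value in each line, at -0.52 ± 0.12 and -0.68 ± 0.12 (limma adjusted p = 0.0047 and 0.00079).

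At 12 and 18 h, 4 members were higher and 16 lower in BEAS-2B (18.2% and 31.3% of all genes), and 5 higher and 14 lower in HCT116 (17.8% and 30.4%). The median member was at -0.26 in BEAS-2B and -0.22 in HCT116, where the medians of all genes were -0.08 and -0.06. Among genes detected on at least 18 arrays, the late member medians were -0.33 and -0.31, against -0.20 and -0.16 for all such genes. SLC25A28 reached -1.91 ± 0.12 in BEAS-2B (3.77-fold lower) and -2.29 ± 0.12 in HCT116 (4.89-fold lower). SLC25A17 reached -1.82 ± 0.21 in BEAS-2B but -0.64 ± 0.21 in HCT116, and SLC25A4 reached -1.25 ± 0.11 in HCT116 but -0.43 ± 0.11 in BEAS-2B. SLC25A15 was at -0.94 ± 0.13 and -1.25 ± 0.13, and SLC25A29 at -0.94 ± 0.28 and -0.84 ± 0.28. The late HCT116 call of SLC25A29 was lost without copper 18 h replicate 2 (-0.55, limma adjusted p = 0.070) or copper 12 h replicate 1 (-0.66, adjusted p = 0.065). On the rising side, SLC25A25 stood at 2.09 ± 0.09 and 1.47 ± 0.09, SLC25A51 at 1.13 ± 0.15 and 1.54 ± 0.15, and SLC25A44 at 0.63 ± 0.10 and 1.55 ± 0.10. The second SLC25A51 probe gave late values of 0.52 in BEAS-2B and -0.14 in HCT116, neither called (limma adjusted p = 0.15 and 0.74). SLC25A26 (0.61 ± 0.16) and SLC25A21 (0.96 ± 0.13) rose late in HCT116, and SLC25A36 fell late there (-0.83 ± 0.23, limma adjusted p = 0.0060). Against all untreated arrays the late SLC25A21 value was 0.33 and no longer called (adjusted p = 0.070). The late rise of SLC25A37 called in BEAS-2B was also lost against them (0.031, limma adjusted p = 0.87). The late fall of SLC25A3 called in BEAS-2B was lost without a detection filter (limma adjusted p = 0.055). It was also lost with a replicate block (0.075) and with BEAS-2B fitted alone (0.080).

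**Figure D4:**
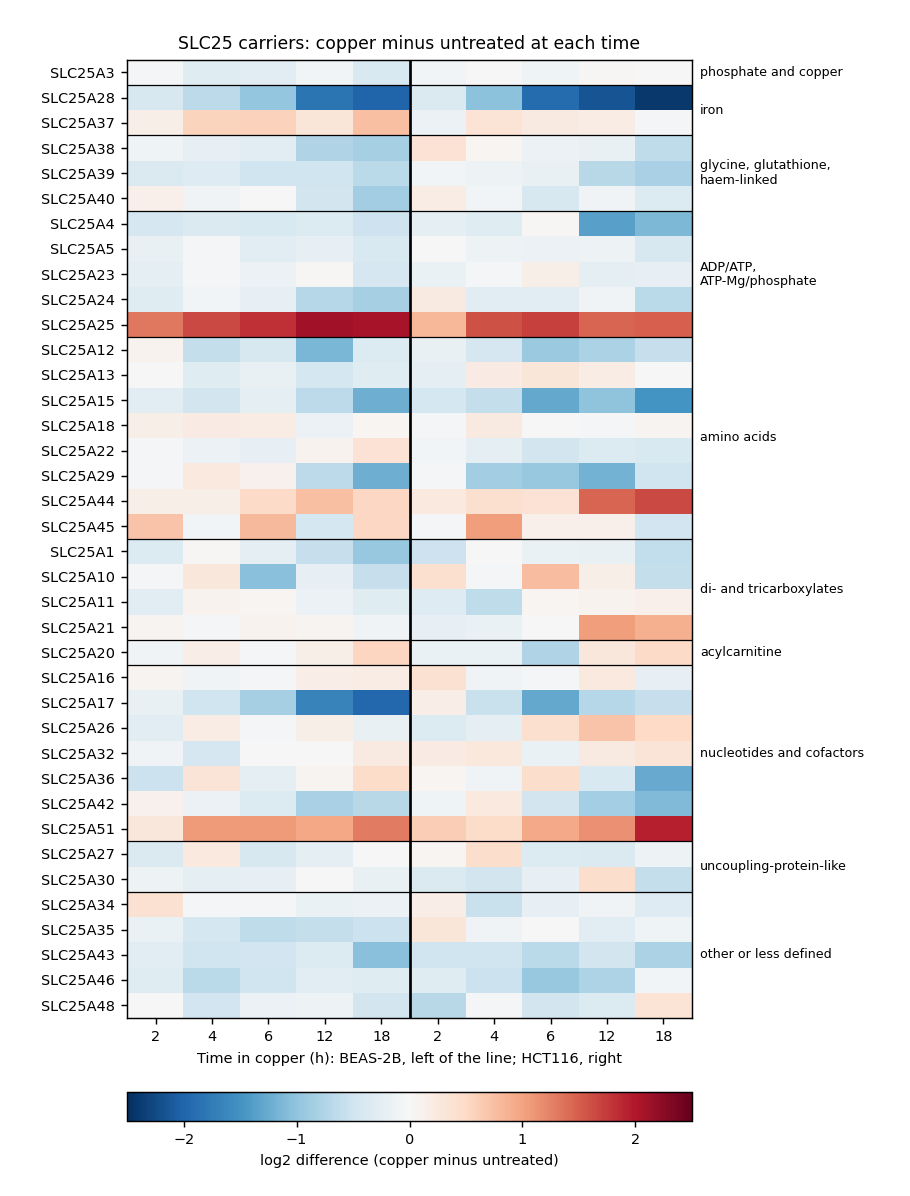
Copper minus untreated on the log2 scale for the 38 carriers (rows, by substrate group) at 2, 4, 6, 12 and 18 h in BEAS-2B (left) and HCT116 (right), red higher and blue lower with copper. The fall of SLC25A28 deepens from -0.39 to -2.0 in BEAS-2B, and in HCT116 from -0.35 to -2.41, while rows of carriers detected on few arrays, such as SLC25A45 on 4, show values near background.

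Tested directly, the late effect differed from the early one for 2 members upward and 5 downward in BEAS-2B (12.0% and 21.3% of all genes) and for 4 upward and 5 downward in HCT116 (11.7% and 21.2%). SLC25A28 shifted by -1.40 ± 0.17 and -1.60 ± 0.17 between the stages (limma adjusted p = 4.0e-06 and 8.2e-07). Its difference deepened at each time, from -0.39 ± 0.17 at 2 h over -0.65 ± 0.17, -0.97 ± 0.14 and -1.83 ± 0.17 to -2.0 ± 0.17 at 18 h in BEAS-2B. In HCT116 it went from -0.35 ± 0.17 over -1.02 ± 0.17, -1.92 ± 0.14 and -2.17 ± 0.17 to -2.41 ± 0.17, with most of the fall reached by 6 h. SLC25A25 had most of its rise early: 1.33 ± 0.12 at 2 h and 2.06 ± 0.12 at 18 h in BEAS-2B, and 0.83 ± 0.12, 1.60 ± 0.12 and 1.49 ± 0.12 at 2, 4 and 18 h in HCT116. SLC25A44 rose late, by 1.22 ± 0.15 more than early in HCT116 (adjusted p = 4.2e-06) and by 0.49 ± 0.15 in BEAS-2B. SLC25A42 fell more late than early, at -0.73 ± 0.19 in BEAS-2B and -1.04 ± 0.19 in HCT116, and its untreated arrays of 12 and 18 h stood 0.61 above those of 0 to 6 h in BEAS-2B and at -0.72 against them in HCT116. The other stage differences were falls of SLC25A1, SLC25A15 and SLC25A17 (-1.48 ± 0.30) in BEAS-2B and of SLC25A4 (-0.99 ± 0.15), SLC25A15 and SLC25A39 in HCT116, and rises of SLC25A25 in BEAS-2B and of SLC25A21, SLC25A26 and SLC25A51 in HCT116. Against all untreated arrays the BEAS-2B stage differences of SLC25A42 (-0.067, limma adjusted p = 0.83) and SLC25A25 (0.17, adjusted p = 0.23) were not called, nor was the late SLC25A42 fall there (-0.31, adjusted p = 0.14). With the mean of its probes the SLC25A51 stage difference in HCT116 was 0.25 (adjusted p = 0.44). With 1 untreated array at each of 2, 4, 12 and 18 h, a single such array can shift these values. Further members also differed between untreated HCT116 arrays of 12 and 18 h and those of 0 to 6 h. The differences were -0.52 for SLC25A46, -0.38 for SLC25A22, 0.33 for SLC25A39, 0.39 for SLC25A1 and 0.61 for SLC25A11 (limma adjusted p = 0.0047 to 0.043). Against all untreated arrays the late SLC25A1 fall in HCT116 was not called (-0.097, limma adjusted p = 0.42).

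The difference of the lines' average copper effects was called for 8 members, 3 more positive and 5 more negative in HCT116, where 12.8% and 13.6% of all genes were. SLC25A44 rose by 0.41 ± 0.09 more in HCT116 (limma adjusted p = 0.0019), and SLC25A13, which fell in BEAS-2B, differed by 0.34 ± 0.10 (adjusted p = 0.023). SLC25A28 fell by 0.41 more in HCT116 (-0.41 ± 0.10, adjusted p = 0.0055) and SLC25A15 by 0.40 more (-0.40 ± 0.11, adjusted p = 0.013), although the mean of the 2 SLC25A15 probes gave a difference of 0.0026. SLC25A25 rose by less in HCT116 (-0.38 ± 0.08, adjusted p = 0.0010), as did SLC25A37 (-0.35 ± 0.09), and SLC25A22 fell there (-0.30 ± 0.08). Of these calls, those of SLC25A28 (-0.27, limma adjusted p = 0.16), SLC25A15 (-0.23, adjusted p = 0.28), SLC25A37 (adjusted p = 0.062) and SLC25A13 (adjusted p = 0.10) were lost without the 6 h arrays. Without the 18 h arrays SLC25A44 (0.23, adjusted p = 0.10), SLC25A22 (-0.20, adjusted p = 0.15), SLC25A37 (-0.24, adjusted p = 0.13) and SLC25A13 (adjusted p = 0.055) were not called. The SLC25A13 call was also lost without the 4 h or 12 h arrays and with the replicate block (adjusted p = 0.063), that of SLC25A22 without the 12 h arrays (adjusted p = 0.065), and that of SLC25A37 against all untreated arrays (adjusted p = 0.13). For SLC25A35 the fitted difference rests on signals near background and gives no size.

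In untreated cells the lines differed in 24 of 38 carriers, 13 higher and 11 lower in HCT116, where 29.8% and 29.7% of all genes were. Of these calls 2, those of SLC25A21 and SLC25A35, rest on a line in which no untreated array detected the gene. SLC25A39 ran from 12.11 over 12.31 to 12.60 on 8 HCT116 arrays against 10.06 over 10.25 to 10.35 in BEAS-2B, a difference of 2.14 ± 0.05 (4.42-fold, limma adjusted p = 2.4e-17). SLC25A15 was 1.63 ± 0.08 higher in HCT116 (adjusted p = 1.4e-12), SLC25A22 1.46 ± 0.06, SLC25A26 1.04 ± 0.10 and SLC25A28 0.91 ± 0.07. SLC25A21, on 0 of 8 untreated BEAS-2B and 8 of 8 HCT116 arrays, was at least 2.05-fold higher in HCT116. It met the detection rule only through HCT116, so the rule favoured this difference and its p-value is no support. In the other direction SLC25A51 was -1.16 ± 0.09 in HCT116 against BEAS-2B (adjusted p = 2.5e-09), SLC25A13 -1.01 ± 0.07 and SLC25A46 -0.84 ± 0.09. The second SLC25A51 probe gave -0.11, not called (limma adjusted p = 0.62), and the second SLC25A15 probe 0.46 (adjusted p = 0.00043). SLC25A25 (0.06 ± 0.05) and SLC25A4 (0.03 ± 0.06) were not called. SLC25A3 was slightly higher in HCT116 (0.23 ± 0.06, adjusted p = 0.0017).

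**Figure D5:**
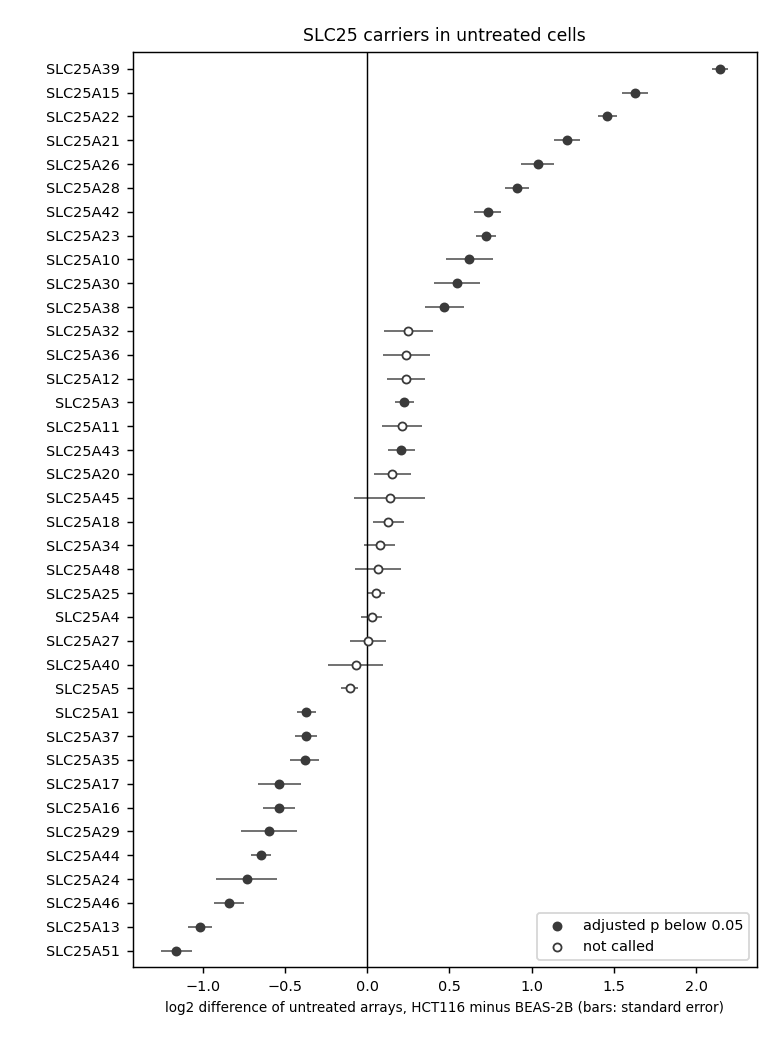
Log2 difference of untreated arrays, HCT116 minus BEAS-2B, with its standard error for each of the 38 carriers, ordered by size, with filled points past the adjusted threshold of 0.05. On the probes used, SLC25A39 at 2.14 and SLC25A51 at -1.16 are the extremes, and a second SLC25A51 probe gave -0.11.

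Other genes of mitochondrial transport came from lists of general knowledge. Of 15 genes for the import of carrier precursors, 9 fell and 1 rose in BEAS-2B and 10 fell and 1 rose in HCT116, where 30.3% of all genes fell and 18.5% rose in BEAS-2B and 29.1% and 17.3% in HCT116. The same shares of all genes stand behind the counts of the lists that follow. TIMM22, the pore of the carrier translocase, fell, at -1.56 ± 0.08 and -1.42 ± 0.08 (limma adjusted p = 6.8e-12 and 2.6e-11). TOMM6, a small subunit of the outer membrane pore, fell, at -1.35 ± 0.05 and -0.91 ± 0.05, TIMM10, a chaperone of the intermembrane space, at -0.96 ± 0.07 and -0.59 ± 0.07, and TOMM5 at -0.64 ± 0.05 and -0.22 ± 0.05. The risers were the receptor gene TOMM70 in BEAS-2B (0.24 ± 0.07) and TIMM10B in HCT116 (0.35 ± 0.12). All 3 measured genes of the outer membrane channel list, VDAC1, VDAC3 and TSPO, fell in both lines, VDAC3 at -0.72 ± 0.06 and -0.54 ± 0.06.

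Of 18 other inner membrane transport genes, 9 fell and 1 rose in BEAS-2B and 7 fell and 2 rose in HCT116. MCU, the pore of the calcium uniporter, rose by 0.55 ± 0.07 and 0.88 ± 0.07 (limma adjusted p = 3.6e-06 and 8.8e-09), and its inhibitory paralog MCUB fell, at -0.40 ± 0.05 and -0.26 ± 0.05. SFXN4 and the ABC transporter gene ABCB10 fell in both lines. Among carriers under other symbols, UCP3 rose (0.42 ± 0.15 and 0.77 ± 0.15, detected on 27 arrays) and UCP2 fell (-0.24 ± 0.09 and -0.39 ± 0.09, on 22 arrays), with 3 of 5 not called. Of 10 regulators of mitochondrial biogenesis, 3 rose and 3 fell in BEAS-2B and 2 rose and 6 fell in HCT116. TFB1M, a mitochondrial rRNA methyltransferase gene, fell, at -1.05 ± 0.06 and -1.14 ± 0.06, PPRC1, a coactivator gene, at -0.19 ± 0.06 and -0.83 ± 0.06. GABPB1, a subunit of the NRF-2 transcription factor, rose by 0.60 ± 0.08 and 1.05 ± 0.08, and its partner GABPA rose in HCT116 (0.95 ± 0.11) and was at 0.04 ± 0.11 in BEAS-2B.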

How the data were processed

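RNA of 2 cell lines was measured on 36 Illumina bead arrays. The authors deposited a log2 signal and a detection p-value for every probe on each array. The file header calls the signals non-normalized, and the values (5.89 to 14.49) show a log2 scale. Whether they were scaled before deposit is not stated in the sources used here. Per the submitters' processing notes BeadStudio was used, and the build and version are not given in the sources used here. A second deposited table of log2 values, with no stated method, differed from these by at most 0.20 and served as an alternative.

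Signals were taken to the linear scale and processed with neqc of limma 3.58.1 (R 4.3.3, offset 16). Of 43960 probes, 13 with missing values were left out. Names came from the array annotation through Entrez Gene identifiers and RefSeq GRCh38.p14 (29474 probes matched). Promoter sequences are RefSeq's. Probes needed a detection p under 0.01 on 2 or more arrays, and the brightest by mean stood for its gene, giving 14678 genes. A single limma fit covered all 22 combinations of line, treatment and time (14 residual degrees of freedom), so groups with 1 array borrow the spread of the others. Contrasts were two-sided, with Benjamini-Hochberg adjustment over all genes and a threshold of 0.05. The number of arrays limits the precision. Self-tests ran on simulated data.

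Members, lists and tests were chosen with earlier results of these data known. Named members were the up to 6 called with the largest rises and falls per line's average, up to 3 each way for late, stage and line contrasts, and a set of metal, nucleotide and metabolite carriers. Beyond these, small counts and sequences shown were named after their values were seen. Alternatives were the filter, the authors' table, the deposited signals as they stand, the mean of probes and the pooled untreated reference. Further alternatives were each line alone, a replicate block, and leaving out times or arrays. Replicate numbers did not pair arrays: deviations of same-numbered arrays correlated with a median of 0.0018 (BEAS-2B) and -0.00054 (HCT116), each over 21 group pairs.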

Additional observations from a re-analysis of the deposited data

Results flagged for a closer look

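The copper effect differed between the lines, by limma's test of the difference itself, for 8 carriers. As HCT116 minus BEAS-2B on the log2 scale, SLC25A28 was at -0.41, SLC25A15 at -0.40, SLC25A25 at -0.38, SLC25A37 at -0.35 and SLC25A22 at -0.30, and SLC25A13 was at 0.34, SLC25A44 at 0.41 and SLC25A35 at 0.44. The value of SLC25A35 is a fitted difference of signals near background and gives no size, as 0 of 10 copper arrays in BEAS-2B and 0 of 8 untreated arrays in HCT116 detected it. Only the SLC25A25 difference kept its call under every alternative run. The others lost it under at least 1, SLC25A28, SLC25A15, SLC25A37, SLC25A13 and SLC25A35 without the 6 h arrays and SLC25A44 and SLC25A22 without the 18 h arrays, and SLC25A15 stood at 0.0026 with its probes averaged. The lines also received different doses, which cannot be told apart from the line.

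Outside the carriers analysed, the probe of the pseudogene SLC25A51P4 was detected on 25 arrays, 13 of BEAS-2B and 12 of HCT116. The probes of SLC25A21-AS1 and SLC25A3P1 were detected on 0 arrays.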

How the results depend on the processing

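Single arrays were left out only from groups with 2 arrays. The lone untreated arrays of 2, 4, 12 and 18 h were never left out on their own, so their weight was not tested this way. Within that limit the average calls kept their counts within 1.5 times of those reported. They numbered 4 to 5 members higher and 15 to 17 lower in BEAS-2B, and 4 to 5 higher and 13 to 14 lower in HCT116. Over all alternatives, 7831 values of the named members kept their side of the threshold, 136 passed it newly, 91 no longer passed it and 22 reversed. A change of sign counted as a reversal only if the value was called before or after the change. The 7831 can therefore hold sign changes of values that were not called. The causes were not tested. Against all untreated arrays, the early falls in BEAS-2B numbered 9, the late minus early calls 4 higher and 12 lower in BEAS-2B and 17 lower in HCT116, and the line difference was called higher for 6. Under that setting the share of all genes called also rose, to 16.3% for early falls in BEAS-2B, 17.5% and 28.9% for late minus early in BEAS-2B and 28.2% for its falls in HCT116. For the line difference higher it was 13.5%. When a gene's probes were averaged, late minus early in BEAS-2B gave 4 higher and 8 lower, the HCT116 average 7 higher, early HCT116 1 higher and the line difference 5 higher. The shares of all genes called so were, in that order, 11.9%, 20.3%, 17.4%, 4.33% and 13%. On the deposited signals as they stand, late minus early in BEAS-2B gave 8 lower and the line difference 5 higher (24.5% and 14.1% of all genes). With HCT116 fitted alone, 1 member was early higher and 1 lower (2.95% and 2.2% of all genes). The line difference was higher for 5 without the 2 h arrays (13.6% of all genes) and higher for 1 without the 18 h arrays (8.52%). Without the 6 h arrays it was higher for 1 and lower for 3 (9.72% and 10.6% of all genes). Leaving out single arrays gave 1 to 3 early higher calls in HCT116 (1 without copper 2 h replicate 2 or copper 4 h replicate 1), 1 to 3 early lower (1 without copper 4 h replicate 1), and 3 to 5 for the line difference higher (5 without HCT116 copper 18 h replicate 1). A replicate block left 1 early higher call in HCT116 in place of 2 (3.97% of all genes), although replicate numbers did not pair the arrays. The block moved no other count of members by over 1.5 times.

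Reversals were few. With the mean of its probes, SLC25A3 stood at 0.13 in the BEAS-2B average, 0.31 late, 0.34 late minus early and 0.48 in the HCT116 average. SLC25A24 with the mean of its probes stood at 1.03 on average, 0.58 early, 1.37 late and 0.80 late minus early in BEAS-2B, at 0.46 on average and 0.58 late in HCT116, and at -0.57 for the line difference. With the SLC25A24 probe of the highest mean deposited signal, an alternative chosen after seeing the data, the same values were 3.65, 1.88, 5.35 and 3.47 in BEAS-2B, 1.29 and 1.76 in HCT116, and -2.37. The mean of the SLC25A15 probes gave 0.0026 for the line difference. Against all untreated arrays, late minus early was -0.34 for SLC25A26 and -0.55 for SLC25A37 in BEAS-2B and -0.49 for SLC25A46 in HCT116. Single untreated arrays at 2, 4, 12 and 18 h and signals near background limit the precision.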
